A study of Rattus norvegicus with 8 samples.

Results

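The transcripts described here are those of the cytosolic ribosomal proteins, taken as every probe whose gene name on the array began with Rpl or Rps followed by a number, p, a or x, with the S6 kinase genes (Rps6k) left out. This rule took 160 of 30367 probes, which stand for 88 of 26214 gene names, 54 of the large subunit (Rpl) and 34 of the small subunit (Rps). The test included 87 of these genes among 16908 in all. Only Rpl39l, a relative of Rpl39, was not well above background on both arrays of any group, and it has no value here. The rule also took relatives that are not core ribosomal proteins of most cells, and it did not take Fau, whose product is a fusion of a ribosomal protein with a ubiquitin-like protein.

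RNA came from N27 cells, an immortalised line made from midbrain of rat embryos at day 12 and used as a model of dopamine neurons. The control group had no toxin named in the labels. Manganese was given to the Mn group at 150 µM for 48 h. MPP+, an inhibitor of respiratory complex I, was given at 250 µM, also for 48 h. For the 3-NPA group neither a dose nor a time nor a vehicle is named. 3-NPA is read here as 3-nitropropionic acid, an inhibitor of succinate dehydrogenase. Each group had 2 single-colour arrays, and whether these were separate cultures is not stated. A p-value here therefore measures the spread between arrays, which may be technical. All groups are of 1 cell line, and all 8 arrays lay on 1 slide.

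The ribosome is built from a large and a small subunit, each of which joins ribosomal RNA to many different proteins in nearly fixed proportions. In vertebrates the mRNAs of these proteins begin with a run of pyrimidines, the TOP motif, through which growth signals acting by mTOR and the protein LARP1 control their translation. They are among the most abundant mRNAs of growing cells, and their level and their translation can move apart, so a level of mRNA is not a measure of ribosomes.

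A run of pyrimidines lay near most of the annotated starts of these genes. Of the 88 genes, 79 matched RefSeq by accession and 7 by symbol only, and 68 had a start under the same symbol in the RefSeq table (build GRCr8). Runs of C or T were read on the gene's own strand where they began within 20 bases of the start, on either side. A run of at least 6 was found for 55 of the 68 (80.9%), against 38.8% of 27457 starts in the table. A run of at least 8 was found for 47 (69.1%), against 17.3%. Such a run need not lie at the start itself, so mRNAs that begin with a run were not counted. The starts of 4 genes to which the results return are printed from 30 bases before to 30 bases after the annotated start, with the longest pyrimidine run in capitals.

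Rpl27a (GRCr8 chr1:172974543-172974602, plus strand): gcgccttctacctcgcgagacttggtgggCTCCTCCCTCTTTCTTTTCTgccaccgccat
Rpl12 (GRCr8 chr3:36661910-36661969, plus strand): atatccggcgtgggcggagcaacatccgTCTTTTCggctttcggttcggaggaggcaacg
Rpl28 (GRCr8 chr1:78083503-78083562, minus strand): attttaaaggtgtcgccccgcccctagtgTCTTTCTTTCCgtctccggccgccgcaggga
Rps14 (GRCr8 chr18:56498230-56498289, plus strand): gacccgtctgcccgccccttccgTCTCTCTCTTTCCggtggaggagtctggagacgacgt

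The run lasted 20 bases in Rpl27a, 7 in Rpl12, 11 in Rpl28 and 13 in Rps14. These matches describe the letters of the windows and were not measured on the arrays.

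The probes themselves were 60 bases long, and many of them recognise more than 1 annotated transcript. Of the 158 member probes that passed the filter, 74 were listed against more than 1 Ensembl transcript. Ribosomal protein genes have many near-identical processed copies in mammalian genomes, so a value belongs to the probe's sequence and may include such copies. Probes of the members to which the results return are shown because their signal is the measurement, with positions on rn4 as the files give them.

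Rpl27a (rn4 chr1:167116637-167116696, plus strand): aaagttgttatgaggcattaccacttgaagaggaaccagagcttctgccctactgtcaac
Rpl28 (rn4 chr1:67770003-67770062, minus strand): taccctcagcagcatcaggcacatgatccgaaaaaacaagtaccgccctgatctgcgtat
Rpl7 (rn4 chr5:2317332-2317391, plus strand): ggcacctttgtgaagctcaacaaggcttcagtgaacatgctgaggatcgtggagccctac

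Levels below are log2 processed signals from which the array's 75th percentile was subtracted, so that 0 is that percentile. A gene stood by its brightest probe, and it is said to rise or fall where the limma fit over all 16908 genes gave an adjusted p below 0.05. Values after ± are standard errors of that fit, with n = 2 arrays per group. Probe brightness depends on the probe, so levels are compared between groups and not between genes. The 75th percentile of signal was 1024 to 1279 intensity units, 0 spots were saturated, and 32711 to 41354 spots per array were well above background. As for the labelled cell type, the dopaminergic markers Th, Nr4a2 and Slc18a2 were well above background in all 4 groups, Ddc in 3, Pitx3 and Aldh1a1 in 2, and the dopamine transporter Slc6a3 in none. Of the neuronal markers, Map2 and Tubb3 were in all 4 groups and Snap25, Syt1, Stmn2 and Nefl in none.

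After Mn, 0 of the 87 ribosomal protein genes passed the limma test, where 7.66% of all genes did, with 4.5% of all genes higher and 3.16% lower. At an unadjusted p below 0.05, 0 were higher and 4 lower. The Mn arrays lay in slide columns 3 and 4 and the control arrays in columns 1 and 2, so column and toxin cannot be told apart. The median log2 change was -0.11 over the 87 genes and -0.02 over all genes tested. Without Mn replicate 2 the members' median was 0.0019, so its sign rested on that array, and without control replicate 2 it was -0.0295. The 95% interval of the change lay within 2-fold in both directions for 79 of the 87 genes and within 1.5-fold for 66, so larger changes remained inside the interval for the others.

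After MPP+, 3 of the 87 genes rose and 0 fell, all 3 of the large subunit, where 13.9% of all genes passed in either direction, 7.47% rose and 6.47% fell. The members' share was below that background. The median log2 change was 0.15 against 0.02 over all genes, and 77 of the 87 genes had a positive change, most of them small and not called. After 3-NPA, 2 genes fell and 0 rose, 1 of each subunit, where 38.3% of all genes passed, 22.3% rose and 16% fell. The median log2 change was -0.0034 against 0.05 over all genes, with 43 genes above 0 and 44 below. Leaving out single arrays moved this median between -0.0876 (without control replicate 1) and 0.0362 (without control replicate 2), and its sign was not settled.

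**Figure D1:**
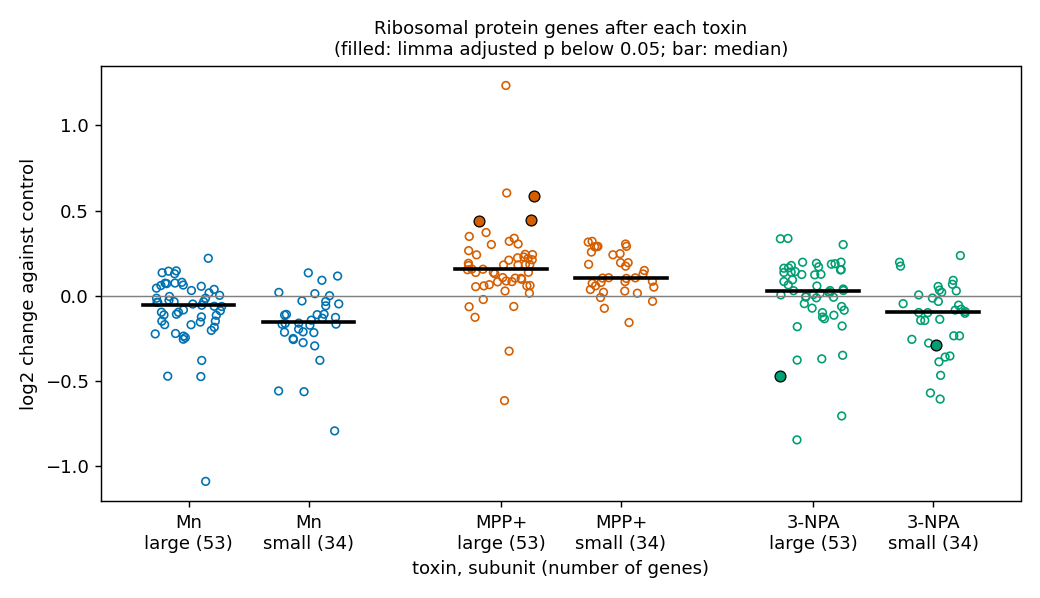
Log2 change against control (vertical axis) of each ribosomal protein gene after Mn, MPP+ and 3-NPA, split into 53 large and 34 small subunit genes. Each circle is a gene, filled circles passed the limma test, and bars are medians. The clouds lie close to 0, with the MPP+ medians at 0.16 and 0.11 above it and 3 filled circles after MPP+ and 2 after 3-NPA.

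Shares were also taken among bright probes. Among 351 other genes with a mean log2 level of at least 6, the range in which 65 members lay, 1.14% passed after Mn, 5.7% after MPP+ and 15.7% after 3-NPA. Of the 65 members in that range, 0, 2 and 2 passed. This limit on brightness was chosen after the values were seen.

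The arrays of a toxin and of control did not overlap for 22 of the 87 members after Mn, and 18 of the 22 were lower. Among all genes 50.5% did not overlap, and 4238 of those 8531 were lower. After MPP+ the arrays did not overlap for 63 of the 87 members, with 59 of the 63 higher. Among all genes 63.5% did not, with 5757 of those 10734 higher. After 3-NPA the figures were 37 of the 87 members, 20 higher and 17 lower. Among all genes 71.9% did not overlap, 6752 higher and 5399 lower. The interquartile range of member changes ran from -0.19 to 0.0020 after Mn, 0.06 to 0.24 after MPP+ and -0.14 to 0.12 after 3-NPA. Over the 46 core genes of the large subunit the extremes were -0.47 and 0.15 after Mn, -0.13 and 0.59 after MPP+, and -0.47 and 0.33 after 3-NPA. Over the 31 core genes of the small subunit they were -0.56 and 0.135, -0.16 and 0.32, and -0.57 and 0.24.

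The medians of the large and the small subunit lay within 0.13 of each other after every toxin. The large subunit's median log2 change was -0.06 after Mn, 0.16 after MPP+ and 0.03 after 3-NPA. The small subunit's was -0.15, 0.11 and -0.09. The large subunit therefore lay above the small by 0.096 after Mn, 0.0515 after MPP+ and 0.1258 after 3-NPA. The large minus small difference of median levels varied between replicate arrays of a group with a pooled SD of 0.0604. That SD is of levels and not of changes per gene, so the 3 differences are not ranked against it. They are described without a test. The sign of the large subunit's median depended on the scaling of the arrays, being 0.02 after Mn and -0.11 after 3-NPA when each array's median was used and 0.03 after Mn with quantile normalization, while the small subunit kept its sign for each toxin under these scalings and normexp. As scaled here, 17 of 53 large and 6 of 34 small subunit genes were above control after Mn, 47 and 30 after MPP+, and 33 and 10 after 3-NPA.

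On single arrays, the large subunit's median, taken after subtraction of each gene's control mean, was -0.07 and 0.07 in control, 0.02 and -0.10 after Mn, 0.17 and 0.18 after MPP+, and 0.10 and 0.04 after 3-NPA. The small subunit's was -0.08 and 0.08 in control, then -0.03 and -0.16, 0.09 and 0.13, and -0.07 and -0.03 after the toxins in the same order. Both MPP+ arrays were above both control arrays for each subunit. Of the 4 Mn and 3-NPA arrays, 2 lay between the control arrays for the large subunit and 3 for the small.

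**Figure D2:**
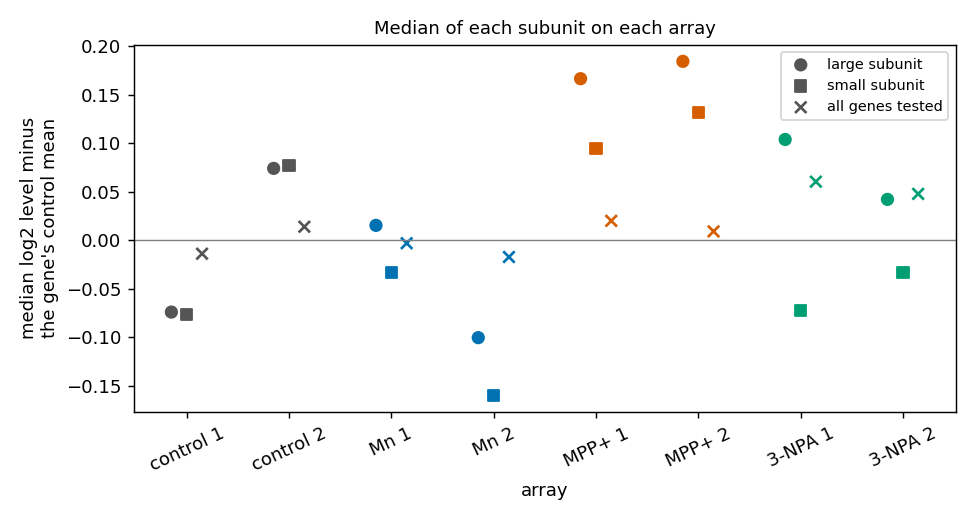
Median over genes of the log2 level minus the gene's control mean (vertical axis) on each of the 8 arrays, for large subunit genes, small subunit genes and all genes tested. The control arrays lie at -0.07 and 0.07 for the large subunit, the MPP+ arrays at 0.17 and 0.18, and all genes tested stay between -0.02 and 0.06.

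How far these shifts lie from 0 depended on the scaling of the arrays. When the median of each array replaced its 75th percentile, the median of all genes moved from 0.02 to 0.13 after MPP+ and from 0.05 to -0.09 after 3-NPA. The members' medians moved with it, to 0.26 after MPP+ and -0.15 after 3-NPA. Relative to all genes, the members stood at 0.13 after MPP+ and -0.05 after 3-NPA under both scalings, which is fixed by their construction, since each subtracts 1 number per array. After quantile normalization the distance from all genes was 0.04 after MPP+ and -0.0051 after 3-NPA. After Mn it was -0.09 under both percentile scalings and -0.07 after quantile normalization. With normexp background correction it was -0.07, 0.25 and 0.0147 after Mn, MPP+ and 3-NPA, so the sign for 3-NPA turned.

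Among the core members of the large subunit, Rpl27a had the largest of the 3 rises after MPP+. It encodes a large subunit protein, and its level was 5.0 and 5.14 on the control arrays, 5.22 and 5.21 with Mn, 5.53 and 5.79 with MPP+, and 5.44 and 5.37 with 3-NPA. Every toxin array lay above both control arrays. The log2 change was 0.59 ± 0.12 after MPP+ (limma adjusted p = 0.0271), 0.15 ± 0.12 after Mn and 0.33 ± 0.12 after 3-NPA, of which only the first passed. A further probe of Rpl27a, placed on chromosome 17 of rn4, had a log2 change of 0.28 after MPP+, -0.59 after Mn and -0.38 after 3-NPA.

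Rpl28, a protein of the large subunit found in eukaryotes, rose after MPP+. Its level was 6.50 and 6.56 on the control arrays, 6.50 and 6.45 with Mn, 6.99 and 6.95 with MPP+, and 6.65 and 6.69 with 3-NPA. The MPP+ arrays were the highest and overlapped no other group. The log2 change was 0.44 ± 0.08 after MPP+ (limma adjusted p = 0.0228). A further probe of Rpl28 with 2 spots gave 0.42. A dim further probe was not well above background on the control arrays, and no fold is given for it.

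Rpl12, a protein at the base of the stalk on which elongation factors land, also rose after MPP+. Its level was 6.28 and 6.33 on the control arrays, 6.39 and 6.38 with Mn, 6.76 and 6.74 with MPP+, and 6.36 and 6.53 with 3-NPA. Again the MPP+ arrays were highest and stood clear of the others. The log2 change was 0.44 ± 0.09 (limma adjusted p = 0.0313), and a further probe gave 0.45.

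Control and MPP+ arrays shared the same 2 columns of the slide, so both could be compared within a column. Both control arrays lay in slide row 1 and both MPP+ arrays in row 2, so the row and the toxin cannot be told apart. MPP+ minus control was 0.53 and 0.64 for Rpl27a, 0.48 and 0.40 for Rpl12, and 0.49 and 0.39 for Rpl28 in slide columns 1 and 2. All 3 differences were thus present in both columns. Over the 87 members the median was 0.22 in column 1 and 0.11 in column 2, with 80 and 65 genes above 0 and 63 above 0 in both. With the column as a fixed block, 1 member was called, and with the column as a random block, 5 were. The 3 calls also rested on the number of arrays, since 0 members were called after MPP+ when control replicate 1 or any single MPP+ or 3-NPA array was left out. The count was 2 without control replicate 2 and 4 without one or the other Mn array.

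Rpl7, a large subunit protein that binds ribosomal RNA, fell after 3-NPA. Its level was 6.82 and 7.0 on the control arrays, 6.66 and 6.67 with Mn, 6.93 and 6.94 with MPP+, and 6.49 and 6.39 with 3-NPA. The 3-NPA arrays were the lowest of the 8, with the Mn arrays next. The log2 change was -0.47 ± 0.10 after 3-NPA (limma adjusted p = 0.0129) and -0.24 ± 0.10 after Mn, which did not pass. A further probe of Rpl7 gave -0.32 after 3-NPA.

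Rps14, a small subunit protein of the platform near the exit of the mRNA, fell after 3-NPA. Its level was 7.08 and 7.13 on the control arrays, 6.97 and 6.92 with Mn, 7.16 and 7.13 with MPP+, and 6.85 and 6.79 with 3-NPA. Here too the 3-NPA arrays were lowest and overlapped no other group. The log2 change was -0.29 ± 0.08 (limma adjusted p = 0.0375), and its other probes gave -0.34 and -0.69. The probe at -0.69 ± 0.37 had 1 spot and was not called among the probes (limma adjusted p = 0.186). It was 6.29 and 6.51 on the control arrays, 6.22 and 5.35 with Mn, and 6.13 and 5.28 with 3-NPA. Its fall thus lay mostly in replicate 2 of Mn and 3-NPA, which share a slide column. The 3-NPA arrays lay in other positions of the slide than the control arrays and were read by Feature Extraction in a separate run, so these and the toxin cannot be told apart. The count of members called after 3-NPA was 1 without 3-NPA replicate 1, MPP+ replicate 1, MPP+ replicate 2 or control replicate 2, 3 without control replicate 1, and 2 without one of the other arrays.

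Beside these 3-NPA values, 7 of 12 tested markers of astrocytes, microglia, oligodendrocytes and endothelium were higher after 3-NPA and 0 were lower. Of all genes, 22.3% were higher and 16% lower. Of the 7, Mbp was well above background in 1 group, and Sox10, Pecam1 and Kdr in 2. The control means of these lay below the lowest signal well above background on either control array. The filter thus favoured a rise in them, and they are not read as changes. The summed log2 level of the 12 markers was 0.13 and 0.14 on the 3-NPA arrays against -0.57 and -0.33 on the control arrays. The defining markers Gfap, C1qa, Olig2 and Cldn5 were not well above background on both arrays of any group. The part of these markers in the result was not tested. All groups are of 1 cell line, and in bulk RNA a change in the share of cells and a change in RNA per cell cannot be told apart.

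**Figure D3:**
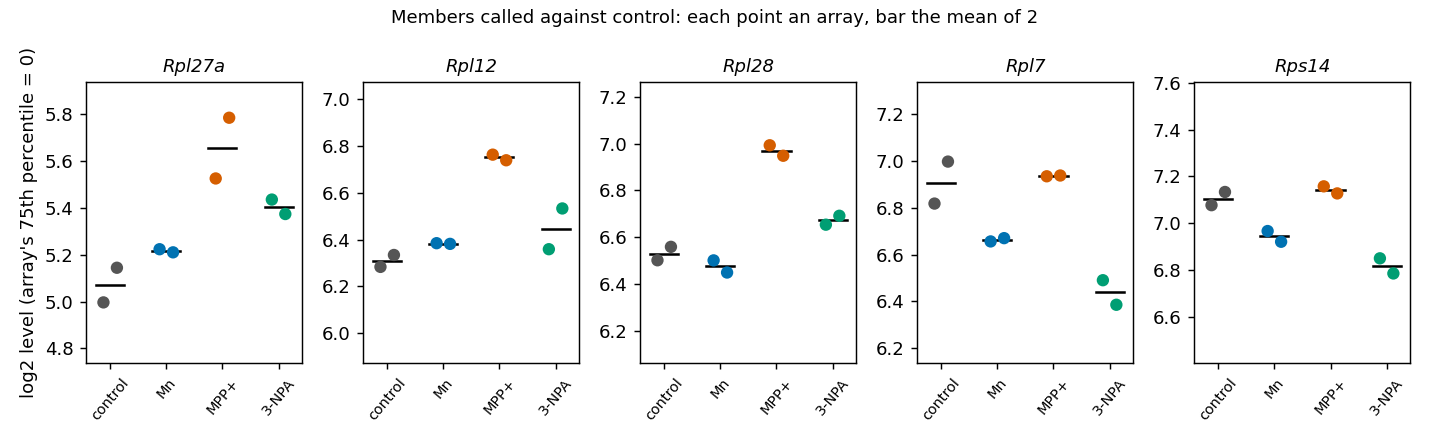
Log2 level (vertical axis, 0 at each array's 75th percentile) of the 5 members called against control, on 2 arrays of each group, with the mean as a bar. Rpl27a, Rpl12 and Rpl28 are highest on the MPP+ arrays, and Rpl7 and Rps14 are lowest on the 3-NPA arrays. The panels share 1 span on the vertical axis.

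Rpl5, Rpl11, Rps6, Rps27a and Rplp0 had no call against control in the fit of all genes, though Rpl5 had one after MPP+ with the agreeing spots described further on. Rpl5 and Rpl11 join the 5S ribosomal RNA and bind the p53 regulator MDM2 when ribosome assembly is disturbed. Rpl5 was 5.18 and 5.21 on the control arrays, 5.04 and 5.28 with Mn, 5.57 and 5.56 with MPP+, and 5.13 and 5.28 with 3-NPA. Only the MPP+ arrays were above the rest, at a log2 change of 0.37 ± 0.11 (limma adjusted p = 0.081). Rpl5l1, a copy of Rpl5, had 0.60 ± 0.16 (limma adjusted p = 0.0543).

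Rpl11 was 7.34 and 7.47 on the control arrays, 7.17 and 7.20 with Mn, 7.27 and 7.29 with MPP+, and 7.16 and 7.29 with 3-NPA. As the mean over 2 spots, its toxin arrays all lay below control. No change passed, the limma adjusted p being 0.208, 0.41 and 0.182 for Mn, MPP+ and 3-NPA. The spots of Rpl11 disagreed, with a log2 change after Mn of -0.38 by spot 1 and -0.06 by spot 2. Rps6, the substrate of the S6 kinases, was 6.73 and 6.76 on the control arrays, 6.80 and 6.58 with Mn, 6.95 and 6.88 with MPP+, and 6.88 and 6.71 with 3-NPA. Its Mn and 3-NPA arrays overlapped control and its MPP+ arrays did not.

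Rps27a, made as a fusion with ubiquitin, was 6.33 and 6.66 on the control arrays, 6.50 and 6.49 with Mn, 6.52 and 6.51 with MPP+, and 6.42 and 6.37 with 3-NPA. All toxin arrays lay within the control range. Rplp0, which anchors the stalk, was 7.66 and 7.71 on the control arrays, 7.78 and 7.56 with Mn, 7.78 and 7.86 with MPP+, and 7.93 and 7.83 with 3-NPA. Its log2 change was -0.01 ± 0.11, 0.14 ± 0.11 and 0.20 ± 0.11 after Mn, MPP+ and 3-NPA, and none passed. The 95% interval after 3-NPA ran from -0.07 to 0.46.

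Several relatives of the core proteins were measured. Rps27l, a relative of Rps27 that is a p53 target in human cells, was 4.48 and 4.74 on the control arrays, 4.66 and 4.51 with Mn, 4.84 and 4.77 with MPP+, and 4.25 and 4.25 with 3-NPA. The 3-NPA arrays were the lowest, at -0.36 ± 0.12 from control (limma adjusted p = 0.0542). Rpl22l1, a relative of Rpl22, was 4.91 and 5.52 on the control arrays, 4.98 and 4.94 with Mn, 5.50 and 5.52 with MPP+, and 4.65 and 5.02 with 3-NPA. Every toxin had at least 1 array between the 2 control arrays of Rpl22l1.

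Rpl10l, a relative of Rpl10 known from the testis of mice, was 2.54 and 2.77 on the control arrays, 2.48 and 2.38 with Mn, 2.30 and 2.36 with MPP+, and 2.49 and 2.55 with 3-NPA. Its MPP+ and Mn arrays lay below control, and the change after MPP+ was -0.32 ± 0.11 (limma adjusted p = 0.104). Rpl7l1, a nucleolar relative of Rpl7, stayed between 0.59 and 0.87 on all 8 arrays.

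Rpl3l, a relative of Rpl3 known from striated muscle, was near background, at -5.74 and -5.29 on the control arrays, -6.99 and -6.22 with Mn, -5.88 and -6.37 with MPP+, and -5.22 and -5.13 with 3-NPA. It was well above background on both 3-NPA arrays, 1 MPP+ array and none of the control or Mn arrays, and had to be higher in 3-NPA to pass the filter. Rpl17l1 passed the filter through the MPP+ arrays alone, which set its place among the genes tested, and no fold against control is given for it.

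Spots of the same probe on the same array disagreed for some members. Of the 87 genes, 28 stood by a probe with 1 spot and 59 by a probe with 2 or more. Of the 59, spots, each taken relative to its own median over the 8 arrays, lay within 0.5 of each other on every array for 48 and further apart on at least 1 array for 11. Rpsa, the small subunit protein also known as the laminin receptor, had 1 spot at 2.93 on Mn replicate 1 and 3.34 on 3-NPA replicate 1, while its other spot was 5.24 and 5.25 there. On the remaining 6 arrays both spots lay between 5.08 and 5.54. As the mean over spots, Rpsa was 5.19 and 5.23 on the control arrays, 4.08 and 5.22 with Mn, 5.44 and 5.47 with MPP+, and 4.30 and 5.42 with 3-NPA.

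Rplp1, a stalk protein, had 1 spot at 4.53 on Mn replicate 2 and 4.94 on 3-NPA replicate 2, with the other spot at 6.43 and 6.54. Rpl36al, a relative of Rpl36a, had 1 spot at 3.60 on Mn replicate 1 and 3.45 on 3-NPA replicate 1, with the other at 5.19 and 4.61. Its mean over spots was 5.09 and 5.08 on the control arrays, 4.40 and 5.01 with Mn, 5.08 and 4.96 with MPP+, and 4.03 and 4.73 with 3-NPA. Rps3, at the entry of the mRNA channel, had 1 spot at 5.97 and 6.12 on the same arrays, with the other at 6.93 and 6.96. In each of these genes the low spot was on arrays of the same slide column, since Mn and 3-NPA replicates 1 shared column 3 and replicates 2 shared column 4.

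**Figure D4:**
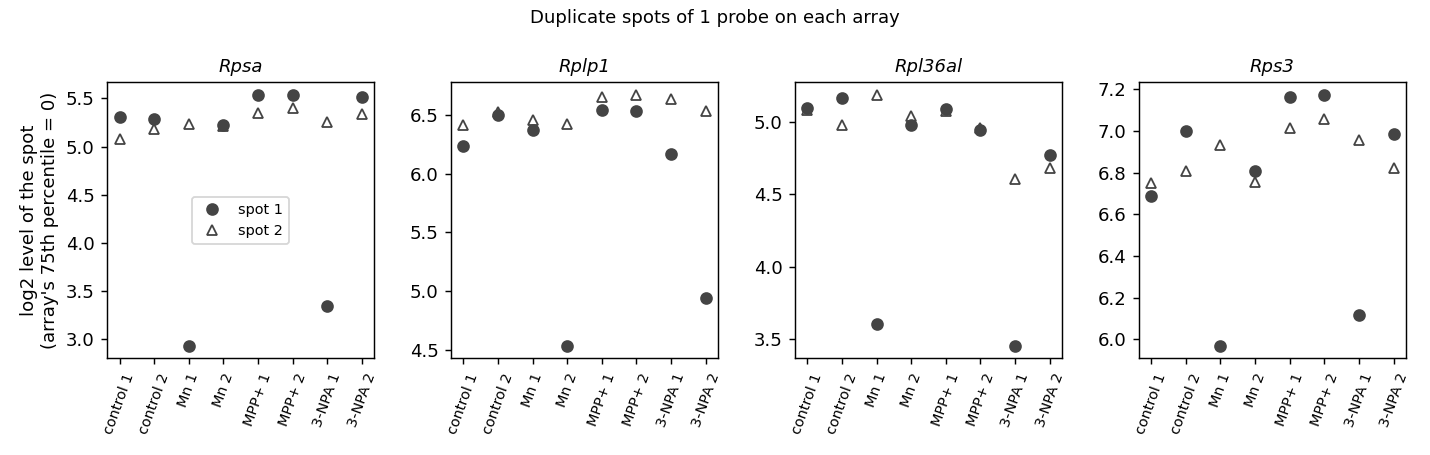
Log2 level (vertical axis, 0 at each array's 75th percentile) of both spots of 1 probe on each array for Rpsa, Rplp1, Rpl36al and Rps3. Filled circles (spot 1) fall to 2.93 and 3.34 for Rpsa on Mn 1 and 3-NPA 1 and to 4.53 and 4.94 for Rplp1 on Mn 2 and 3-NPA 2, where open triangles (spot 2) do not.

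The choice of spot set the apparent change. For Rpsa the log2 difference from control after Mn was -1.22 by spot 1 and 0.10 by spot 2, and after 3-NPA -0.87 and 0.17. For Rplp1 it was -0.92 and -0.03 after Mn and -0.81 and 0.12 after 3-NPA. After MPP+ the spots differed less, with 0.24 and 0.24 for Rpsa and 0.17 and 0.19 for Rplp1. The mean over spots left both genes with wide errors, as in the Mn change of Rpsa of -0.56 ± 0.47. Rps4y2, whose probe had only 1 spot, was 3.48 and 3.68 on the control arrays, 3.72 and 1.86 with Mn, 3.79 and 3.87 with MPP+, and 3.80 and 2.15 with 3-NPA. Its low arrays were again replicates 2 of Mn and 3-NPA, and no second spot was there to compare.

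Replicate differences were also compared between groups that shared slide columns. Replicate 1 minus replicate 2 in Mn correlated with replicate 1 minus replicate 2 in 3-NPA at r = 0.863 and rho = 0.745 over the 87 genes, which share arrays and are not independent, and at r = 0.5 over all genes. For control and MPP+, which shared the other columns, the values were r = -0.59 and rho = 0.0614 over the members and r = 0.0241 over all genes, so no such relation was seen there. The replicates differed by more than 0.3 for 25 members in Mn, 20 in 3-NPA, 12 in control and 2 in MPP+. The spread that enters the errors of these genes was thus wider in Mn and 3-NPA than in MPP+.

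**Figure D5:**
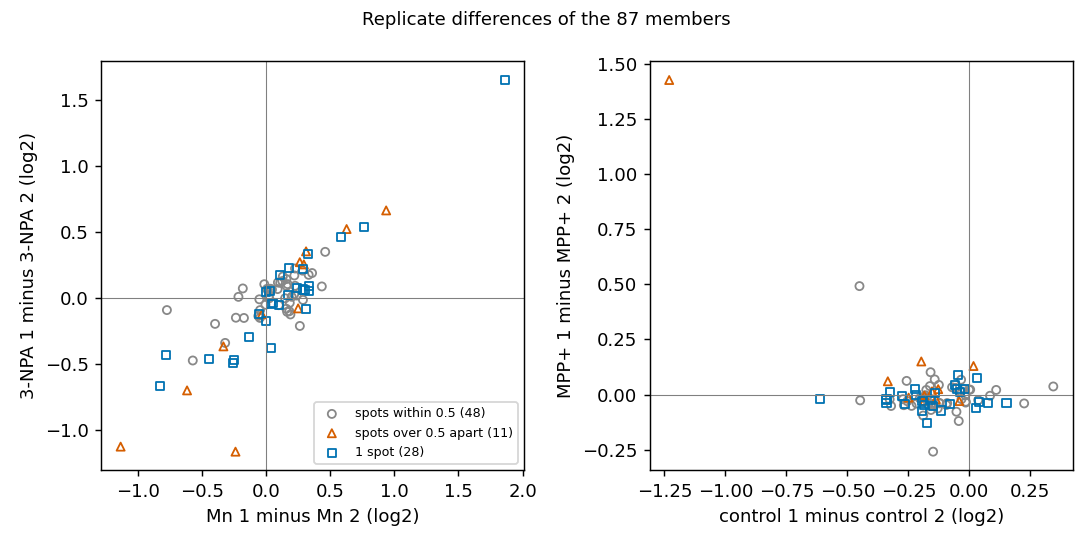
Replicate 1 minus replicate 2 (log2) for each of the 87 members, with Mn against 3-NPA on the left and control against MPP+ on the right. Markers separate 48 genes whose spots agree, 11 whose spots are over 0.5 apart and 28 with 1 spot. On the left the points follow a rising diagonal (r = 0.863), on the right MPP+ differences stay near 0 for all but a few genes.

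When only probes whose spots agreed within 0.5 on every array were used, a choice made after seeing the data, 59 members could be tested among 7535 genes. After Mn 20.1% of the genes passed, and the only member among them was Rpl3l, which was well above background on none of the control and Mn arrays and is not read as a change. After MPP+ 7 members rose and 1 fell, where 30.3% passed, and after 3-NPA 1 rose and 5 fell, where 53.8% passed. The members that rose after MPP+ included Rpl27a, Rpl28, Rpl32, Rpl5 and Rpl5l1, these 5 with log2 changes from 0.30 to 0.60, and Rpl10l fell. Rpl28 stood here by another probe than above. Those that fell after 3-NPA included Rpl7, Rps14, Rps27l and Rpl22l1, these 4 by 0.29 to 0.77 on the log2 scale, and Rpl27a rose. Rpl22l1 stood here by a dimmer probe than above, at -1.48 and -1.32 on the control arrays and -2.04 and -2.31 with 3-NPA. The large subunit's median after MPP+ was then 0.15 and the small subunit's 0.17, the reverse order of that with all probes. More of the members passed than with all probes, as did more of the other genes.

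Probes of 1 gene could also disagree. Among the 158 member probes in a fit of 19460 probes, 3 (1.9%) passed after Mn, 6 (3.8%) after MPP+ and 9 (5.7%) after 3-NPA, where 7.06%, 13.1% and 37% of all probes did. Of these calls, 2 after Mn, 1 after MPP+ and 1 after 3-NPA were of probes not well above background on all 4 arrays compared and are not read as changes. No gene had probes called in both directions for any toxin. Rps23, a small subunit protein at the decoding centre, stood by a probe that was 7.79 and 7.98 on the control arrays and 7.89 and 7.78 on the Mn arrays, with a log2 change of -0.05 after Mn and -0.03 after 3-NPA. A dimmer probe with 2 spots was 5.94 and 5.95 on the control arrays, 5.04 and 4.86 with Mn, 6.11 and 6.06 with MPP+, and 5.15 and 5.11 with 3-NPA. Its log2 change was -0.99 after Mn and -0.81 after 3-NPA, both called among the probes. The low arrays were those of slide columns 3 and 4, so column and toxin cannot be told apart for this probe.

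Another probe of Rps23 overlaps the dimmer one in position and had changes of -0.15 after Mn and -0.13 after 3-NPA. The 54 bases over which both probes align are shown because they differ at 2 bases, in capitals.

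Rps23 probe that fell (rn4 chr2:21047796-21047855, plus strand, bases 1 to 54): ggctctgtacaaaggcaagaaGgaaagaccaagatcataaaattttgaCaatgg
Rps23 probe with no call (rn4 chr2:21047791-21047849, plus strand, bases 7 to 60): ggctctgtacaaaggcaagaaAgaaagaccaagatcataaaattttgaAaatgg

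The toxins were also compared with each other. MPP+ against 3-NPA had the most member calls, with 8 genes higher after MPP+ and 0 lower, where 31% of all genes passed, 12.9% higher after MPP+ and 18.1% lower. The largest differences among the called members were in Rps13 (0.63 ± 0.19, limma adjusted p = 0.0489), Rps27l (0.55 ± 0.12, 0.0167) and Rps2 (0.54 ± 0.12, 0.0216), all of the small subunit or its relatives. Rps2 was 7.36 and 7.28 with MPP+ and 6.64 and 6.93 with 3-NPA, and Rps13 was 6.38 and 6.43 with MPP+ and 5.54 and 6.01 with 3-NPA. The MPP+ arrays lay above the 3-NPA arrays in both genes, and the 3-NPA replicates were 0.29 and 0.47 apart. Both genes stood by a probe with 1 spot. Mn replicate 1, in the same slide column as 3-NPA replicate 1, was also the lower Mn array, at 6.81 for Rps2 and 6.01 for Rps13. Under alternative settings the call held in 15 of 20 for Rps2, 9 of 20 for Rps13 and 17 of 21 for Rps27l. Rpl28, Rpl7 and Rps14 also passed, as did Rps3a and Rps4x, which were named after their values were seen. The MPP+ arrays lay in slide columns 1 and 2 and the 3-NPA arrays in columns 3 and 4, so column and toxin cannot be told apart in this comparison. The count of calls depended on 4 arrays. It was 0 without MPP+ replicate 1, MPP+ replicate 2 or 3-NPA replicate 1 and 2 without 3-NPA replicate 2, and it was 8 or 9 without one of the other arrays.

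Mn against MPP+ had 1 member call, Rpl28, with a log2 difference of -0.50 ± 0.08 (limma adjusted p = 0.0218), where 9.1% of all genes passed, 4.88% higher and 4.22% lower after Mn. It was called without one or the other control array, and 0 members were without any other single array. Mn against 3-NPA had 1, Rpl3l, where 28.6% passed, 11.7% higher and 16.9% lower after Mn. Rpl3l entered the test through its 3-NPA arrays alone, so the filter favoured this direction and the call is not read as a result about the members. It was not well above background on either Mn array, and was at least 1.85-fold higher in 3-NPA, against the lowest signal well above background on each Mn array (limma adjusted p = 0.0181). The count was 0 without 3-NPA replicate 1 or 3-NPA replicate 2, 2 without one or the other control array and 1 without one of the others. The comparisons with control share the control arrays, and the Mn and 3-NPA values share slide columns. Mn and MPP+ arrays lay in different columns and rows of the slide, and Mn and 3-NPA arrays in different rows. These positions and the toxins cannot be told apart.

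Genes of the pathways around the ribosome were counted in the same fit, in which 7.66%, 13.9% and 38.3% of all genes passed after Mn, MPP+ and 3-NPA. Of 52 ribosome biogenesis genes tested, 1 rose after Mn (1.92%), 5 rose after MPP+ (9.62%), and 4 rose and 16 fell after 3-NPA (38.5%). Taken in either direction, the share after 3-NPA was that of genes at large. By direction it was not, since falls outnumbered rises here, where 16% of all genes fell and 22.3% rose. The median log2 change after 3-NPA was -0.12 over the 52 genes and 0.05 over all genes, and this difference was not tested. The falls after 3-NPA included Emg1, a methyltransferase of the small subunit's RNA (log2 change -1.11 ± 0.11), Nhp2, part of the enzyme complex that makes pseudouridine (-0.88 ± 0.08), Rcl1 (-0.78 ± 0.10) and Mrto4 (-0.67 ± 0.10), at limma adjusted p of 0.00102, 0.000787, 0.00227 and 0.00379. Wdr43, a protein of early small subunit assembly, rose after all 3 toxins, by 0.52 ± 0.08, 0.68 ± 0.08 and 0.41 ± 0.08.

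Of 19 translation factors and other TOP mRNAs, 1 fell after Mn, 1 rose after MPP+, and 3 rose and 5 fell after 3-NPA, shares of 5.26%, 5.26% and 42.1%. Eef1a1, an elongation factor whose mRNA carries a TOP motif, fell after Mn (-0.69 ± 0.10) and 3-NPA (-0.58 ± 0.10), at limma adjusted p of 0.0174 and 0.00801. Mn and 3-NPA shared slide columns that held no control array, so column and toxin cannot be told apart for these falls. Eef2, the factor that drives translocation, rose after MPP+ (0.65 ± 0.11, limma adjusted p = 0.016). Of 13 genes of RNA polymerase I, 0 passed after Mn, 1 rose and 1 fell after MPP+ (15.4%), and 1 rose and 2 fell after 3-NPA (23.1%).

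Among 15 genes of growth control, 4 rose after Mn, 4 after MPP+ and 5 after 3-NPA, and 1 fell, after 3-NPA. The shares that passed were 26.7%, 26.7% and 40%. Tsc1 was among the genes that rose after Mn and 3-NPA. Its control mean of -5.17 lay below the lowest signal well above background on either control array (-4.785 and -4.42). The filter thus favoured a rise in Tsc1, and it is not read as a change. Sesn2, a stress-induced inhibitor of mTORC1, rose after every toxin (1.19 ± 0.18, 2.44 ± 0.18 and 1.64 ± 0.18 for Mn, MPP+ and 3-NPA), as did Eif4ebp1, a repressor of cap-dependent translation (0.61 ± 0.12, 1.21 ± 0.12 and 0.85 ± 0.12), and Ddit4, another mTORC1 inhibitor (0.62 ± 0.11, 0.66 ± 0.11 and 0.66 ± 0.11). Larp1, the protein that binds TOP mRNAs, rose after MPP+ (0.55 ± 0.10) and 3-NPA (0.61 ± 0.10). The limma adjusted p of these changes was 0.0418 or less.

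Mitochondrial ribosomal proteins, which are encoded in the nucleus and build a separate ribosome, were counted too. Of 69 tested (Mrpl and Mrps), 0 passed after Mn, 6 rose and 6 fell after MPP+, and 3 rose and 27 fell after 3-NPA, with median log2 changes of -0.08, 0.0094 and -0.22. Taken in either direction, the shares of 17.4% after MPP+ and 43.5% after 3-NPA stood near the 13.9% and 38.3% of all genes. By direction they were not alike after 3-NPA, with 27 of 69 lower and 3 higher, where 16% of all genes fell and 22.3% rose. The median over all genes after 3-NPA was 0.05, and the difference in direction was not tested. A further 183 gene names outside the rule were described in the files as ribosomal proteins or like them. Of these 0 passed after Mn, 14 rose and 2 fell after MPP+, and 5 rose and 10 fell after 3-NPA, and their median was -0.13, 0.24 and -0.09. The shares of 8.74% after MPP+ and 8.2% after 3-NPA were below those of all genes.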

How the data were processed

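The deposited scanner files hold spot intensity made by Agilent Feature Extraction 11.5.1.1 under a 1-colour protocol, after background subtraction within each array, per the file headers, and give positions on rn4. The deposited value table holds log2 values whose maker is not given in the sources used here. The medians of its columns were -3.99 and -4.11 for control, -4.30 and -4.31 for Mn, -4.34 and -4.38 for MPP+, and -4.08 and -4.16 for 3-NPA. The columns correlated with the log2 signals at 0.9966 or more, and served as an alternative. What changed its remaining values is unknown.

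Spots marked as outliers were left out, spots of a probe were averaged as log2 values, and each array's 75th percentile was subtracted. A probe was used where over 0.5 of its spots were well above background on each array of some group, and the brightest such probe stood for its gene. All 8 arrays entered 1 limma 3.58.1 fit (R 4.3.3) of group means with moderated variances (4 residual and 2.06 prior degrees of freedom) and Benjamini-Hochberg adjustment over 16908 genes in each of 6 comparisons. An exact permutation test of 2 arrays against 2 cannot give a 2-sided p under 0.333 and was not run. The fit was tested on simulated data. The members and lists were chosen with earlier results of these data known.

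Named on every array were 14 fixed members (Rpl39l without a value), up to 5 called members per direction for each toxin and 3 for each pair of toxins, and members whose probes were called in opposite directions, of which there were none. Up to 4 called genes per list and toxin could be named. Rps3, Rplp1, Rps23, Rpl5l1, Rpl17l1 and those called with agreeing spots were named after their values were seen. Promoter windows came from RefSeq (GRCr8). Some genes counted among the calls are not reported here by name.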

Additional observations from a re-analysis of the deposited data

How the results depend on the processing

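With 2 arrays per group, counts of called members moved with most settings, and medians less. Member counts for MPP+, 3-NPA, Mn against MPP+, Mn against 3-NPA and MPP+ against 3-NPA were 3, 2, 1, 1 and 8 as reported. They were 9, 9, 8, 2 and 14 with normexp background correction, 8, 7, 9, 2 and 15 with trend and robust variances, and 6, 6, 7, 0 and 13 with a filter on all 8 arrays. With agreeing spots only they were 8, 6, 8, 4 and 13, and with every probe on its own 6, 9, 9, 4 and 20 of 158 probes. For Mn against control the count was 1 with agreeing spots and 3 with every probe on its own, of which 1 and 2 were probes near background. Without a filter on dim probes 5, 1, 0 and 2 were called for MPP+, 3-NPA, Mn against MPP+ and MPP+ against 3-NPA. With only the 4 arrays of a pair 0, 0, 0 and 13 were. With the median of each array 5, 3 and 25 were called for 3-NPA, Mn against 3-NPA and MPP+ against 3-NPA, and the member medians were -0.0334, 0.26 and -0.15. With quantile normalization 0 and 2 were called for Mn against MPP+ and MPP+ against 3-NPA, and the Mn median was -0.0191. Mean values over probes gave 4 for Mn against MPP+ and 2 for Mn against 3-NPA. Array weights gave 19 for MPP+ against 3-NPA. The slide column gave 5 for MPP+ as a random block and 1 as a fixed block. The large minus small difference after MPP+ was -0.0194 with agreeing spots.

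Leaving out 1 array at a time gave 0 to 0 calls for Mn, 0 to 4 for MPP+, 1 to 3 for 3-NPA, 0 to 1 for Mn against MPP+, 0 to 2 for Mn against 3-NPA and 0 to 9 for MPP+ against 3-NPA. The medians ran from -0.158 to 0.0019, 0.0981 to 0.2199 and -0.0876 to 0.0362 for Mn, MPP+ and 3-NPA, and the large minus small difference from 0.0487 to 0.1013, 0.0298 to 0.0722 and 0.0752 to 0.1766. A group left with 1 array was assumed to vary like the others. The labels do not say that replicate numbers pair the samples. With the replicate number as a block, 0, 4, 2, 1, 1 and 7 members were called for the 6 comparisons, and the medians and subunit differences kept their values of -0.11, 0.15 and -0.0034 and of 0.096, 0.0515 and 0.1258. Rpl7 was still called after 3-NPA in 18 of 21 alternatives (adjusted p 0.0029 to 0.0818), Rps14 in 10 of 21 (0.0144 to 0.177), and after MPP+ Rpl28 in 15 of 22 (0.00626 to 0.14), Rpl27a in 14 of 22 (0.00451 to 0.154) and Rpl12 in 10 of 21 (0.0101 to 0.164). No called value changed sign. The causes of these moves were not tested. Precision is limited by having 2 arrays per group.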
